A study of Homo sapiens with 26 samples.

Results

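Histone marks were followed around 5 genes that p53 is known to control and that act in DNA repair, damage bypass and nucleotide supply, namely *DDB2*, *XPC*, *POLH*, *PCNA* and *RRM2B*. Every peak overlapping the body of one of these genes, or the 50 kb to each side of it in the GRCh37 annotation, was taken as part of its window. The genes were taken for their known roles, with earlier results of these lists already known. The windows held 99 of the 87608 merged H3K27ac regions and 46 of the 110276 merged H3K4me1 regions, built from 393 and 278 single peaks. H3K27ac marks active promoters and enhancers, and H3K4me1 marks enhancers and the flanks of promoters.

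The data were peak lists from ChIP-seq of HCT116, a line from a human colorectal carcinoma whose p53 gene is intact. Cells were treated with Nutlin-3a, which blocks the binding of HDM2 to p53 and so activates p53 without damaging DNA, or with DMSO, its solvent. Parental cells (WT) had 2 lists each for H3K27ac and H3K4me1 at 0 h (DMSO) and after Nutlin-3a for 1 h or 10 h. A second line, labelled by RAD21, which is part of the cohesin ring, had 2 H3K27ac lists each at 0 h (DMSO) and 1 h. Cells called untreated below had DMSO and no Nutlin-3a. According to the study's methods RAD21 carries an auxin degron in this line and was degraded with an auxin analogue before Nutlin-3a was given, so every RAD21 list came from engineered cells. The names inside these files say knockdown, in the DMSO lists too, while the labels name no auxin treatment. Differences between line and WT therefore cannot be told apart from loss of RAD21. Replicates carry separate numbers, and the labels do not say how they were grown, so p-values measure the spread between these lists only.

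The genes lie at chr11:47236016-47260768 (*DDB2*, ENSG00000134574, plus strand), chr3:14186647-14220121 (*XPC*, ENSG00000154767, minus strand), chr6:43543922-43588260 (*POLH*, ENSG00000170734, plus strand), chr20:5095599-5107272 (*PCNA*, ENSG00000132646, minus strand) and chr8:103216730-103251189 (*RRM2B*, ENSG00000048392, minus strand). The *XPC* promoter faces that of *LSM3* and the *POLH* promoter faces that of *XPO5*, so a peak over either cannot be assigned to 1 gene of the pair. *PCNA* has a second start within the *CDS2* promoter, and its canonical promoter lies close to that of *TMEM230*.

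DDB2 and XPC find distorted bases at the start of global nucleotide excision repair, the pathway that cuts ultraviolet and bulky lesions out of DNA. POLH is the translesion polymerase that copies past ultraviolet dimers, and PCNA is the ring that clamps polymerases and their partners to DNA. RRM2B is the p53-inducible small subunit of ribonucleotide reductase, which makes deoxynucleotides. p53 binds as a tetramer to a pair of half-sites with an invariant C and G at each core, next to each other or parted by a short spacer.

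The following matches to the p53 consensus are shown because they lie in H3K27ac regions that later paragraphs turn on. Capitals mark the half-sites and lower case the spacer. All are read 5′ to 3′ on the strand of the named gene from GRCh37.
*DDB2* start, chr11:47236530-47236550 (plus, 5′ untranslated part of exon): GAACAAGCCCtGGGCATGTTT
*XPC* intron, chr3:14198861-14198891 (minus): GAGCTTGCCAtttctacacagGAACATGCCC
Intron of *XPO5* and *POLR1C* in the *POLH* window, chr6:43520231-43520250 (plus): AGACATGCACCAGCATGCCC
The *DDB2* match had 0 mismatches to the consensus with a spacer of 1 base and began 5 bp downstream of the canonical start. The *XPC* match had 1 mismatch and a spacer of 11 bases and lay 21210 bp downstream of the start. The *POLH* window match had 2 mismatches and no spacer and lay at −23691 bp from the *POLH* start. A match with 1 mismatch also lay in the first part of *RRM2B*, 2102 bp downstream of its start, and one with 2 mismatches in an intron of *PCNA*, 1611 bp downstream. A match is a resemblance in sequence, and p53 binding was not measured in these files.

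Matches at H3K27ac regions were rarer the fewer mismatches were allowed. Half-site pairs without a spacer and with at most 3 mismatches lay within 500 bp of the median summit in 14 of the 99 window regions (14.1%), against 9.71% of all H3K27ac regions. At most 2 mismatches left 3 of the 99 with a match (3.03%, against 2.60% of all), and at most 1 left 1 (1.01%, against 0.804%). A search with spacers of up to 13 bases and at most 1 mismatch, which was added after the data were seen, found one in 7 of the 99 (7.07%), against 2.57% of all regions. These shares describe the windows and were not tested.

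The upstream sequences of the 3 promoters whose H3K27ac summit changed sides of the start and that were not printed above are given next. Capitals mark matches, on either strand, to the CCAAT box, the GC box GGGCGG, the TATA box as TATAAA, the cyclic AMP element TGACGTCA and the ETS-type core GGAAGT.
*XPC* to *LSM3*, chr3:14220122-14220316 (minus): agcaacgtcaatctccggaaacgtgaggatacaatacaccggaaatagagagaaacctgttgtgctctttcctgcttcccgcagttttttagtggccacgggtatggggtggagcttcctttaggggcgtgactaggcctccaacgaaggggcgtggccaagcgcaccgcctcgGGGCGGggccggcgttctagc
*XPO5* to *POLH*, chr6:43543776-43543921 (plus): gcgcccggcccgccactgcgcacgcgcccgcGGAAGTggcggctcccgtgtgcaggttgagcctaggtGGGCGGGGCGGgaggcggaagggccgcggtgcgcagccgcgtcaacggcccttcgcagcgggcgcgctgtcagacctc
*PCNA* upstream, chr20:5100605-5100854 (minus): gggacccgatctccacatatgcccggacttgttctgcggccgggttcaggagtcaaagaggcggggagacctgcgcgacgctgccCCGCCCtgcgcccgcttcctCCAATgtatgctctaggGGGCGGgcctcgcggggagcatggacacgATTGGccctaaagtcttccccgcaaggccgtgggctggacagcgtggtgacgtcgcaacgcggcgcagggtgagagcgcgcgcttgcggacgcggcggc
In the 250 bp before the canonical starts, GGGCGG occurred in each of the 5 promoters, as in 59.2% of 19856 promoters. CCAAT occurred only before *PCNA*, with 2 matches, and was held by 34.3% of all promoters. GGAAGT occurred only before *POLH* (20.8% of all), and neither TATAAA (9.26%) nor TGACGTCA (2.40%) was found before any of the 5. In the *POLH* run, adjoining GGGCGG matches share a base. These promoters were rich in G and C, from 61.2% of bases (*XPC*) to 76.8% (*RRM2B*).

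Levels are given as percentiles, the place of a peak within its own list when sorted by the peak caller's −log10 p-value, with 100% the strongest. A percentile depends on how many weak peaks a list holds. The H3K27ac lists had 31640 to 49127 peaks, with the longest at 10 h, and the H3K4me1 lists 84492 to 92943. Differences were therefore tested on rank scores, which are normal scores of the ranks among the 18757 H3K27ac regions (60476 for H3K4me1) present in every list of the mark, so that 1 unit is 1 SD of a list. One limma fit per mark gave changes with their SE, and p-values were adjusted by the Benjamini-Hochberg method over all regions. The lists hold no read counts, so the depth behind each value is unknown, and no interval could be set for a single list. As a check of the cells, 7 of 8 epithelial genes had a promoter peak in all 10 H3K27ac lists (*CDH17* had none in any), and none of 7 genes of blood, endothelium or fibroblasts had one in any list. As a check of the treatment, *MDM2* rose by 0.65 ± 0.16 at 1 h in WT (adjusted p = 0.00984 by limma), while *CDKN1A*, with 0.41 ± 0.16 (adjusted p = 0.0722), did not pass. At 10 h neither passed against 0 h, with 0.05 ± 0.16 for *MDM2* and 0.49 ± 0.16 for *CDKN1A* (adjusted p = 0.858 and 0.0540 by limma). *MDM2* fell by 0.60 from 1 h to 10 h (SE 0.16, adjusted p = 0.0131). In the RAD21 line at 1 h *MDM2* rose by 0.62 ± 0.16 (adjusted p = 0.0131) and *CDKN1A* did not pass (0.26 ± 0.16, adjusted p = 0.258).

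Some lists stood apart in how they were named. The names inside the WT 0 h lists and WT 1 h replicate 1 lack the word "input" that the other 7 H3K27ac lists carry, and what this marks is not stated. WT 10 h against 0 h, and the RAD21 line against WT at 0 h, compare lists of different form. Only WT 1 h has 1 list of each form, so a fit with the form as a term takes its estimate from that pair. In that fit, 37 of the 43 H3K27ac changes that passed in the windows still passed. Changes between lists of 1 form, such as those at 1 h in the RAD21 line, keep their size in it and so went untested. Comparisons with WT 1 h then rest on 1 of its 2 lists. Names in RAD21 0 h replicate 2 carry the numbers of 2 replicates. In RAD21 1 h replicate 2 and in both H3K4me1 lists of WT at 1 h the number inside the names differs from the replicate number of the label, and whether replicates were pooled or renumbered is not stated. All results below also rest on ranking by p-value. Of the same 43 changes, 4 still passed when regions were ranked by fold enrichment and 1 when ranked by covered length. By fold, 0% of all promoter regions rose or fell at 1 h in either line, or differed between the lines at 1 h. A call lost by fold in those comparisons therefore does not set a region apart. Calls kept under either ranking are named where they occur.

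**Figure D1:**
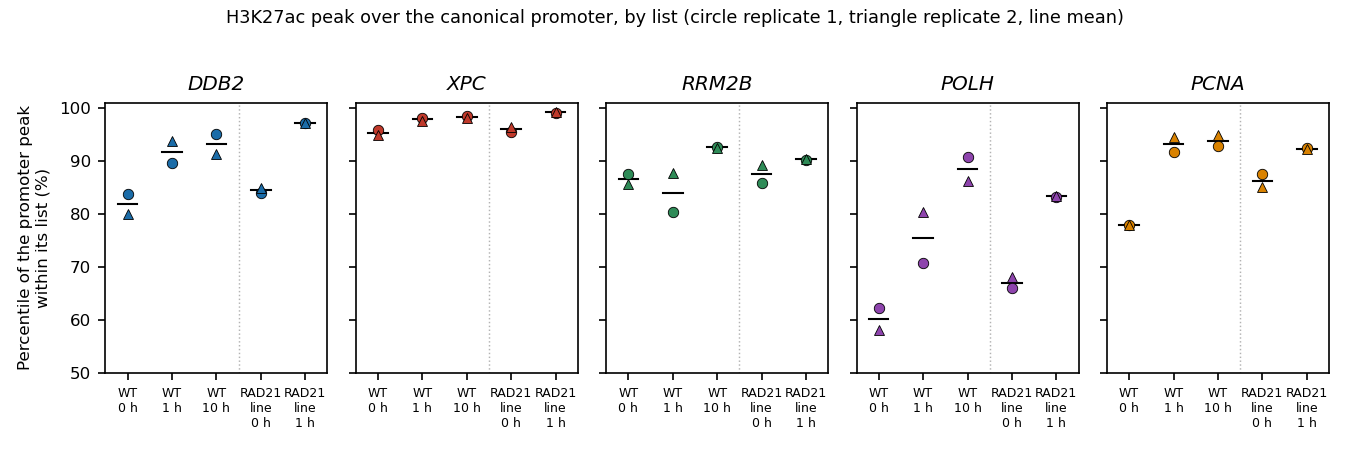
Percentile of the H3K27ac peak over each canonical promoter within its list (y axis, %), by group (x axis), with circles for replicate 1, triangles for replicate 2 and a line at the mean of the 2 lists. *DDB2*, *XPC*, *POLH* and *PCNA* sat higher in every Nutlin-3a list than in the DMSO lists of the same line, *POLH* over the widest span (58.0% to 90.8%). How many of all promoters did so was not counted. Percentiles also depend on list length, the 10 h lists were the longest, and the *XPC* rank score did not pass in WT.

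All 5 canonical promoters carried an H3K27ac peak in all 10 lists. The *XPC* peak was the strongest of the 5 in every list. The order below it changed with treatment, since *RRM2B* came second in the WT 0 h lists and *DDB2* came second in both RAD21 lists at 1 h. *POLH* was the weakest in every list. Where the percentiles of groups are said below not to overlap, the share of all promoters doing so was not counted.

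*DDB2*, the lesion-binding subunit, had a promoter peak at 83.7% and 79.9% in the WT 0 h lists, 89.5% and 93.7% at 1 h and 95.1% and 91.4% at 10 h. Its level in the RAD21 line moved from 83.9% and 84.9% to 97.2% and 97.1%. In bulk samples, fewer cells with the mark and less mark per cell cannot be told apart. Every Nutlin-3a list lay above every DMSO list, with the highest values in the RAD21 line at 1 h. The rank score of the region (chr11:47234660-47238994) rose by 0.54 ± 0.13 at 1 h (adjusted p = 0.00914 by limma) and by 0.49 ± 0.13 at 10 h (adjusted p = 0.0231). It rose by 1.14 ± 0.13 in the RAD21 line (adjusted p = 7.38e-05 by limma). That rise was 0.60 ± 0.19 larger than in WT (interaction, adjusted p = 0.0336), and at 1 h the RAD21 line stood 0.53 ± 0.13 above WT (adjusted p = 0.0219). Ranked by covered length, the interaction (−0.36), the difference between the lines at 1 h (−0.34) and the change in WT at 10 h (−0.040) turned the other way. Among WT lists whose names lack the word input, the rise at 1 h was 0.45 (adjusted p = 0.00983), and without WT 0 h replicate 2 it was 0.46 (adjusted p = 0.093). The value at 10 h fell to 0.32 (adjusted p = 0.35) with the form of the names as a term. It also missed the threshold without WT 0 h replicate 1 (0.56, adjusted p = 0.077), WT 0 h replicate 2 (0.41, 0.18) or WT 10 h replicate 1 (0.32, 0.21). The rise in the RAD21 line passed without each single list. The interaction did not pass without any one of the 6 lists of WT 0 h or the RAD21 line (0.53 to 0.68, adjusted p = 0.063 to 0.14), and the difference at 1 h did not pass without either RAD21 1 h list (0.53 and 0.54, adjusted p = 0.13 and 0.12).

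*XPC*, the damage sensor of global excision repair, already ranked high before treatment. Its peak lay at 95.8% and 94.8% in WT at 0 h, 98.1% and 97.6% at 1 h and 98.5% and 98.0% at 10 h. The RAD21 lists gave 95.5% and 96.4% at 0 h and 99.1% and 99.3% at 1 h. The groups with and without Nutlin-3a did not overlap in either line, but how many of all promoters did the same was not counted. The rank score rose by 0.78 ± 0.13 in the RAD21 line (adjusted p = 0.000981 by limma), also without each single list. In WT the changes were 0.35 ± 0.13 at 1 h (adjusted p = 0.0654) and 0.31 ± 0.13 at 10 h (adjusted p = 0.113), and the interaction of 0.43 ± 0.19 did not pass (adjusted p = 0.117), so the lines were not shown to differ here.

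*POLH*, the polymerase that bypasses ultraviolet dimers, showed the largest WT change at 10 h among the 17 window regions. Its peak rose through 62.2% and 58.0% at 0 h, 70.6% and 80.2% at 1 h and 90.8% and 86.1% at 10 h. The RAD21 lists went from 66.0% and 68.0% to 83.1% and 83.4%. The 3 WT time points did not overlap. The rank score rose by 0.54 ± 0.13 at 1 h (adjusted p = 0.00784 by limma), by 0.98 ± 0.13 at 10 h (adjusted p = 0.000617) and by 0.90 ± 0.13 in the RAD21 line (adjusted p = 0.000305). The step from 1 h to 10 h was 0.44 ± 0.13 (adjusted p = 0.0198). The value at 10 h was 1.46 when ranked by fold (adjusted p = 0.0252), 0.83 with the form of the names as a term (adjusted p = 0.0196), and passed without each single list. Ranked by covered length it was −0.61 (adjusted p = 0.10), and the change at 1 h (−0.41) and the step between the times (−0.20) turned as well. Within lists of 1 name form, the rise at 1 h was 0.47 (adjusted p = 0.0147) and the step to 10 h 0.37 (adjusted p = 0.0490). The former missed the threshold without WT 0 h replicate 2 (0.48, adjusted p = 0.072) and the latter without WT 10 h replicate 1 (0.29, adjusted p = 0.20).

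*PCNA*, the sliding clamp, gave different answers for its merged region and for its promoter alone. The merged region, chr20:5091555-5101870, also holds the promoter of *TMEM230*, because in both RAD21 lists at 1 h a single peak of 9875 and 10316 bp spanned both. The peak over the canonical *PCNA* promoter lay at 77.9% in both WT 0 h lists, 91.7% and 94.4% at 1 h and 92.8% and 94.8% at 10 h. The RAD21 lists lay at 87.5% and 85.0% at 0 h and both at 92.3% at 1 h. The merged region did not pass in WT (−0.07 ± 0.11 at 1 h and 0.02 ± 0.11 at 10 h, adjusted p = 0.677 and 0.925 by limma). A fit to the strongest peak over each of 11249 canonical promoters, added after the data were seen, gave 1.03 ± 0.15 at 1 h (adjusted p = 0.000598) and 0.89 ± 0.15 at 10 h (adjusted p = 0.00482). For scale, 17.6% of those promoters rose at 1 h and 5.29% at 10 h. Ranked by fold, these values were 0.96 and 1.23 (adjusted p = 0.264 and 0.0778). Within lists of 1 name form the value at 1 h was 0.97, and it passed without each single list. The value at 10 h was 0.79 with the form of names as a term (adjusted p = 0.0338), and it did not pass without WT 0 h replicate 1 (0.87, adjusted p = 0.059) or WT 10 h replicate 2 (0.75, adjusted p = 0.068).

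In the RAD21 line the *PCNA* promoter rose by 0.52 ± 0.15 at 1 h (adjusted p = 0.0204 by limma), and the merged region by 0.33 ± 0.11 (adjusted p = 0.0367). The peaks at 1 h are the fused ones, so their strength belongs to both promoters. The promoter value did not pass without RAD21 0 h replicate 2 (0.39, adjusted p = 0.16) or without either RAD21 list at 1 h (0.52 and 0.51, adjusted p = 0.085 and 0.10). The merged value did not pass without any one of 8 lists (0.32 to 0.34, adjusted p = 0.056 to 0.15). Before treatment the merged region ranked 0.54 ± 0.11 lower in the RAD21 line than in WT (adjusted p = 0.00199), while the promoter alone stood at 0.30 ± 0.15 (adjusted p = 0.120) and the merged region ranked by fold at 0.22 (adjusted p = 0.60), so that no direction could be given. The second *PCNA* start, shared with *CDS2* (chr20:5105862-5108907), moved the other way at 1 h in WT, from 80.1% and 81.4% to 73.9% and 79.1%, without passing (−0.27 ± 0.11, adjusted p = 0.0823). It rose from 1 h to 10 h by 0.35 ± 0.11 (adjusted p = 0.0303), a call lost without either WT 10 h list (0.43 and 0.26, adjusted p = 0.053 and 0.21), and ranked 0.30 ± 0.11 higher in the untreated RAD21 line (adjusted p = 0.0464), a call lost without any one of 8 lists (0.26 to 0.35, adjusted p = 0.058 to 0.21). Both directions turned by covered length (−0.26 and −0.27).

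*RRM2B*, the ribonucleotide reductase subunit, was the only member whose merged promoter region passed in no comparison of Nutlin-3a with 0 h. Its peak lay at 87.5% and 85.7% in WT at 0 h, 80.3% and 87.6% at 1 h and 92.6% and 92.4% at 10 h. RAD21 lists lay at 85.8% and 89.2% at 0 h and 90.2% and 90.3% at 1 h. The 1 h lists of WT overlapped those at 0 h, and the 10 h lists lay above both. The rank score did not pass against 0 h (−0.19 ± 0.11 at 1 h, 0.15 ± 0.11 at 10 h and 0.22 ± 0.11 in the RAD21 line, adjusted p = 0.240, 0.365 and 0.166 by limma). From 1 h to 10 h it rose by 0.34 ± 0.11 (adjusted p = 0.0371), but not within lists of 1 name form (0.25, adjusted p = 0.098), and this call was lost without any one of 7 lists (0.25 to 0.35, adjusted p = 0.056 to 0.15).

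**Figure D2:**
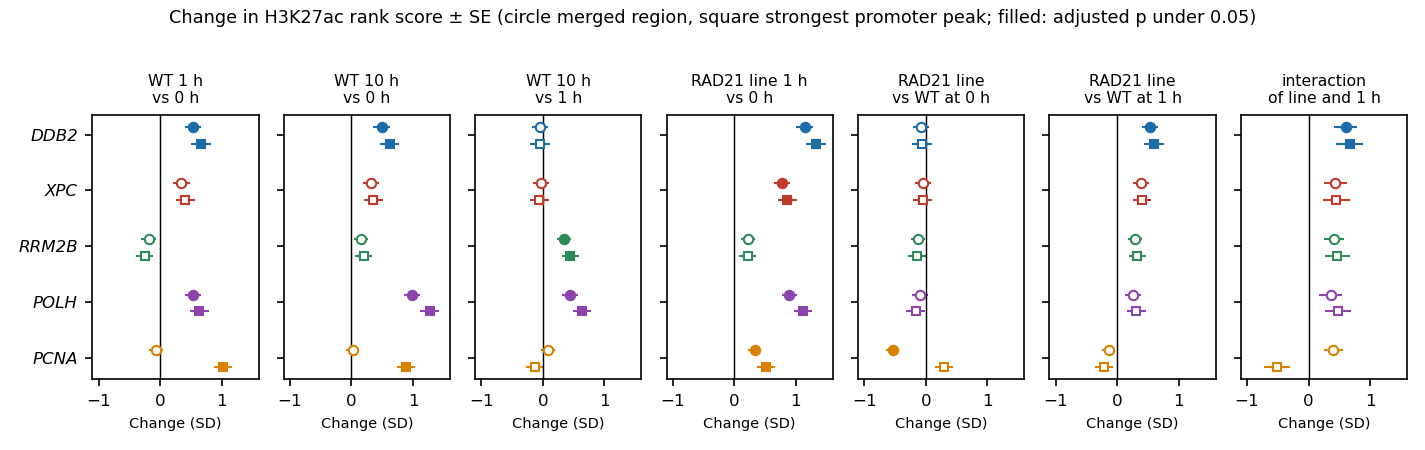
Change in H3K27ac rank score (x axis, SD units, ± SE) of each member's promoter in 7 comparisons, with circles for the merged region and squares for the strongest peak over the canonical promoter; filled symbols have an adjusted p under 0.05. The 2 readouts part for *PCNA*, at −0.07 and 1.03 in WT at 1 h, and lie on the same side of 0 for the others wherever they passed.

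Next, the place of the strongest point of each promoter peak, its summit, was read. These readouts were chosen after the values were seen and carry no test. Positions are given from the canonical start, with upstream negative. The *DDB2* summit lay upstream in WT at 0 h, at −335 and −340 bp, as it did in the untreated RAD21 line (−340 and −369 bp). In all 6 Nutlin-3a lists it lay downstream, at 205 to 274 bp. The p53 match printed above lies between these positions. Of 11249 promoters with a peak in every list, 8 (0.0711%) had a summit upstream in the 4 DMSO lists and downstream in the 6 Nutlin-3a lists, the others being *ANKRD52*, *BZW1*, *CAMLG*, *GALNT11*, *POP7*, *SLC25A29* and *TSEN15*.

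The other members moved differently. The *XPC* summit lay at −423 and −389 bp in the WT 0 h lists and at 145 to 230 bp in the other 8 lists, the untreated RAD21 lists included. The *POLH* summit lay upstream in WT at 0 h (−454 and −452 bp) and 1 h, and at 198 and 192 bp at 10 h. Its position in the untreated RAD21 line was −355 and 199 bp, so the replicates differed, and −475 and −426 bp at 1 h. The *PCNA* summit went the other way, from 200 to 219 bp in WT at 0 h and 1 h to −423 and −383 bp at 10 h. *RRM2B* stayed at 276 to 383 bp in all 10 lists. In all, the summits of 4 of the 5 members (*DDB2*, *XPC*, *POLH* and *PCNA*) lay on one side in both WT 0 h lists and on the other in both WT 10 h lists, against 3.28% of the 11249 promoters. That share was not split by whether a promoter faces another. The upstream summits of *XPC* and *POLH* lie past the facing starts of *LSM3* and *XPO5*, so they cannot be assigned to 1 gene of the pair.

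**Figure D3:**
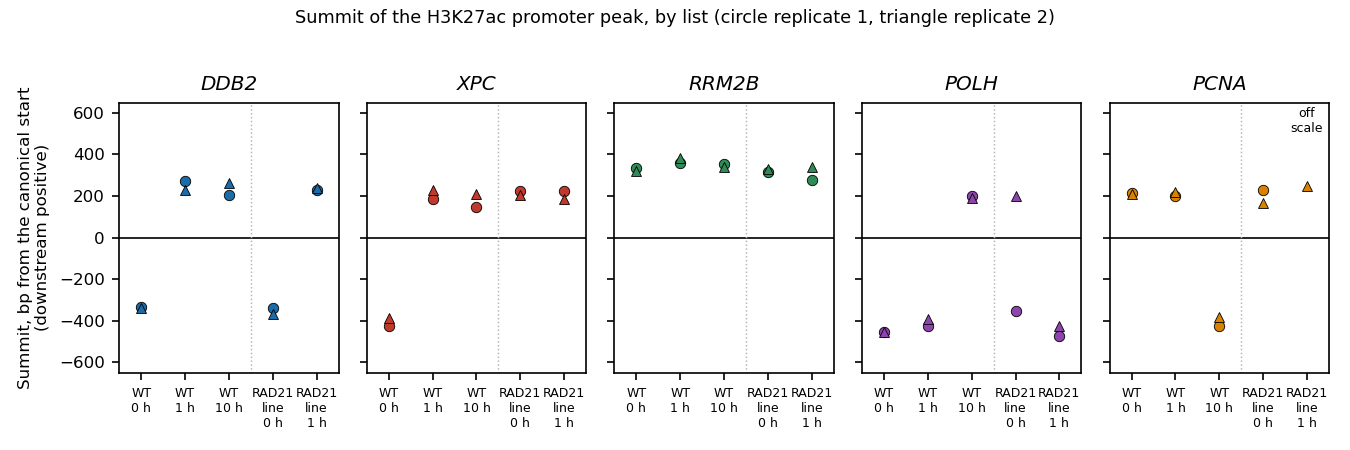
Position of the H3K27ac promoter summit from the canonical start (y axis, bp, downstream positive) by group (x axis), with circles for replicate 1 and triangles for replicate 2. *DDB2* lies upstream in all 4 DMSO lists and downstream in all 6 Nutlin-3a lists; the *PCNA* point of RAD21 1 h replicate 1, at 7098 bp in the fused peak, is off the scale.

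H3K27ac across the windows was then counted. Of the 99 regions, 17 were present in all 10 lists (17.2%, against 21.4% of all regions), and 40 in a single list (40.4%, against 41.6%). Only the 17 could be tested, since a region absent from a list has no rank. At 1 h in WT, 4 rose and 2 fell, as did 14.3% and 14.8% of all tested regions. At 10 h, 4 rose and 0 fell (9.70% and 8.56% of all), and no further region fell at an unadjusted p under 0.05. From 1 h to 10 h, 5 rose and 0 fell (15.8% and 16.5%), likewise with 0 more below that unadjusted level.

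The count was highest in the RAD21 line. There, 9 of the 17 rose at 1 h and 1 fell, against 14.4% and 13.4% of all regions, with a median change of 0.33 against 0.04 over all. The RAD21 line stood above WT at 4 and below at 3 regions before treatment (16.8% and 20.7% of all), and above at 5 and below at 0 at 1 h (5.68% and 6.15%), with 0 below at an unadjusted p under 0.05. The change at 1 h was more positive in the RAD21 line at 5 regions and more negative at 1 (11.7% and 11.0% of all). Some of these regions share a window, so they are not independent of each other. Leaving out 1 list gave between 6 and 11 calls for the RAD21 line at 1 h and between 1 and 8 for the comparison of the lines at 1 h.

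The largest difference between the untreated lines among the 17 regions lay at the 3′ end of *XPC*, over exons of *XPC* and *TMEM43* (chr3:14184688-14188795). Its percentile was 49.6% and 57.9% in WT at 0 h, 74.5% and 78.2% at 1 h and 78.6% and 83.0% at 10 h. The RAD21 line stood at 91.4% and 94.7% before treatment and at 81.3% and 76.8% after 1 h. So the region went up with Nutlin-3a in WT and down in the RAD21 line, and at 1 h the levels of the lines overlapped. In WT it rose by 0.83 ± 0.16 at 1 h (adjusted p = 0.00267 by limma) and by 0.73 ± 0.16 at 10 h (adjusted p = 0.00980), and in the RAD21 line it fell by 0.87 on the rank score (SE 0.16, adjusted p = 0.00176). The difference between these changes was −1.70 ± 0.23 (interaction, adjusted p = 0.000297). Untreated, the RAD21 line stood 1.72 ± 0.16 above WT (adjusted p = 6.01e-06), a difference that was 1.85 when ranked by fold (adjusted p = 0.00753), 1.16 by covered length (adjusted p = 0.00670) and passed without each single list. The value at 10 h did not pass without WT 0 h replicate 1 (0.53, adjusted p = 0.11) or WT 10 h replicate 2 (0.57, adjusted p = 0.11).

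More peaks of the untreated RAD21 line surrounded this region. Of the 7 window regions present in both untreated RAD21 lists and in neither WT list (7.07%, against 5.28% of all regions), 4 lay in the *XPC* window, at chr3:14177975-14179344, chr3:14181256-14181908, chr3:14175591-14176215 and, in an intron of *XPC*, chr3:14191540-14192352. The last 3 were also the only 3 window regions lost in the RAD21 line at 1 h (3.03%, against 2.87% of all). The other 3 gained regions lay in introns of *CDS2* (chr20:5130806-5131856) and *POLH* (chr6:43548080-43548557) and over exons of *ARFGAP2* and *CSTPP1* (chr11:47185504-47188718). Their percentiles lay between 18.0% and 55.6%, in the lower and middle parts of the lists.

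Other regions of the windows moved apart from the promoters. At the *ARFGAP2* promoter (chr11:47196130-47200250, coat protein regulation at the Golgi) the score fell by 0.61 at 1 h in WT (SE 0.13, adjusted p = 0.00517 by limma). It regained 0.77 ± 0.13 by 10 h (adjusted p = 0.00114) and rose by 0.79 ± 0.13 at 1 h in the RAD21 line (adjusted p = 0.000973). Without WT 0 h replicate 1 the fall in WT was −0.54 (adjusted p = 0.062). An intergenic region in the *PCNA* window (chr20:5045081-5047930) showed the same dip in WT, from 91.0% and 88.7% to 68.7% and 76.1% and back to 92.2% and 92.0%. Its score fell by 0.95 (SE 0.11, adjusted p = 0.000172) and then rose by 0.87 ± 0.11 (adjusted p = 0.000173), and both values passed within lists of 1 name form. The rise to 10 h was 1.06 when ranked by fold (adjusted p = 0.0486). Untreated, the region also ranked lower in the RAD21 line (−0.93 ± 0.11, adjusted p = 4.57e-05), and −0.93 by fold (adjusted p = 0.0230). By covered length the change at 1 h was 0.49 and the difference between the lines 0.60, the other way.

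A region in an intron of *CDS2* (chr20:5132580-5138487) rose in each comparison with 0 h, by 0.80 ± 0.18 at 1 h, 0.66 ± 0.18 at 10 h and 0.79 ± 0.18 in the RAD21 line (adjusted p = 0.00608, 0.0259 and 0.00640 by limma). It also stood higher in the RAD21 line than in WT at 0 h (0.67 ± 0.18, adjusted p = 0.0115) and at 1 h (0.66 ± 0.18, adjusted p = 0.0346). The value at 10 h was lost without WT 0 h replicate 1 or 2, WT 10 h replicate 2 or either RAD21 1 h list (0.49 to 0.74, adjusted p = 0.054 to 0.21). The rise in the RAD21 line was lost without RAD21 0 h replicate 1 or either RAD21 1 h list (0.68 to 0.80, adjusted p = 0.052 to 0.066). The difference at 0 h was lost without WT 0 h replicate 1 or RAD21 0 h replicate 2 (0.59 and 0.56, adjusted p = 0.072 and 0.081), and that at 1 h without either RAD21 1 h list (0.67 and 0.64, adjusted p = 0.18 and 0.19). By covered length the difference at 0 h was −0.42.

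In the RAD21 line at 1 h, 3 neighbouring promoters also rose, namely *PACSIN3* (0.62 ± 0.12, adjusted p = 0.00232), *MADD* (0.45 ± 0.12, adjusted p = 0.0141) and the shared promoter of *GTPBP2* and *MAD2L1BP* (0.52 ± 0.13, adjusted p = 0.0111). The *MADD* value was lost without any of the 4 RAD21 lists (0.42 to 0.48, adjusted p = 0.056 to 0.099), and that of *GTPBP2* without RAD21 0 h replicate 1, RAD21 0 h replicate 2 or RAD21 1 h replicate 2 (0.44 to 0.53, adjusted p = 0.059 to 0.11). Untreated, the *CHCHD4* and *TMEM43* promoter ranked 0.37 ± 0.12 higher in the RAD21 line (adjusted p = 0.0262), and at 0.23 with the form of the names as a term (adjusted p = 0.37). That call was also lost without WT 0 h replicate 1, WT 0 h replicate 2 or RAD21 0 h replicate 2 (0.29 to 0.42, adjusted p = 0.072 to 0.17). By covered length the *MADD* (−0.089), *GTPBP2* (−0.20) and *CHCHD4* (−0.24) values turned the other way.

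Regions that appeared with treatment were counted as present in both later lists and in neither earlier list. At 1 h in WT 0 of the 99 were gained and 0 lost (1.51% and 1.32% of all regions). At 10 h, 20 were gained (20.2%, against 11.4% of all regions) and 0 lost (1.90% of all), and against 1 h, 15 were gained (15.2%, against 8.89%). The 10 h lists are also the longest, and the part of list length in these counts was not tested. With presence required at a −log10 q-value of at least 5, 5 (5.05%) and 3 (3.03%) were gained, against 3.13% and 1.97% of all regions.

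The gained regions with the highest percentiles at 10 h were few and modest. The highest, over exons of *XPO5* and *POLR1C* in the *POLH* window (chr6:43519838-43521230), lay at 62.8% and 60.5%, was present only in the 10 h lists, and holds the p53 match of this window printed above. The next, in an intron of *LSM3* upstream of *XPC* (chr3:14224234-14224980), lay at 61.8% and 51.4%. Others lay in an intron of *TMEM230* (chr20:5088293-5089180, 55.1% and 38.7%) and at the *XPO5* promoter (chr6:43495295-43496602, 50.2% and 42.7%). That of *TMEM230* was gained against 0 h only. Of the 6 regions gained in the *XPC* window, that over the *XPC* intron and exon (chr3:14198156-14199593, 43.9% and 34.0%) holds the p53 match of the *XPC* intron. Among all 20, 7 (35%) held a match without a spacer and with at most 3 mismatches, against 26.4% of the 10018 regions gained across the genome. With at most 2 mismatches it was 1 of the 20 (5%), against 8.74%.

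Nutlin-3a for 1 h added 3 regions in the RAD21 line (3.03%, against 4.61% of all). They lay in introns of *TMEM230* (chr20:5081656-5083048, 32.3% and 34.6%) and *ARFGAP2* (chr11:47191968-47192544, 33.9% and 13.6%) and beside the *ARFGAP2* promoter (chr11:47194531-47195682, 4.32% and 8.22%). The last 2 were also the 2 regions gained over WT at 1 h (2.02%, against 3.23% of all). All lay in the lower part of the lists.

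**Figure D4:**
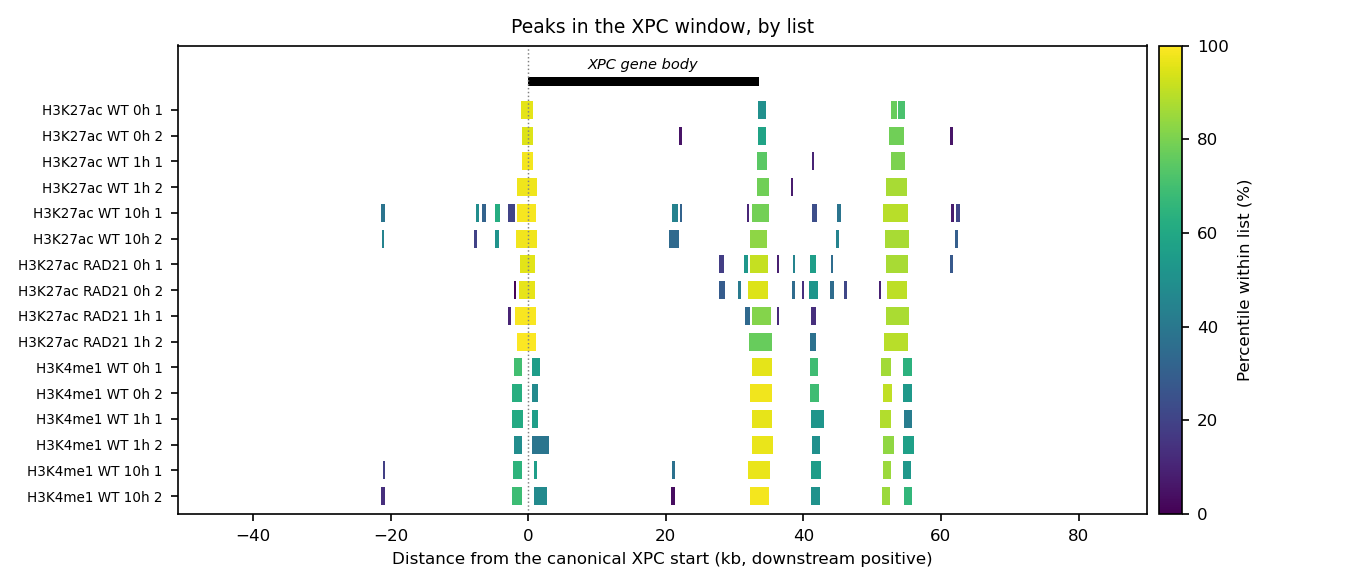
H3K27ac and H3K4me1 peaks of the *XPC* window in the 16 lists (rows), by distance from the canonical start (x axis, kb, downstream positive), coloured by percentile within the list (%). The promoter peak is present in all 10 H3K27ac lists, the H3K27ac region at the 3′ end of the gene is strongest in the untreated RAD21 lists (91.4% and 94.7%), and overlapping peaks of both marks, 1 pair in an *XPC* intron and 1 at the 3′ end of *LSM3*, appear only in the WT 10 h lists.

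H3K4me1 was steadier than H3K27ac in these windows, as it was over all regions, but it had fewer lists, all of WT. Of the 46 regions, 34 were present in all 6 lists (73.9%, against 54.8% of all regions) and 4 in a single list (8.70%, against 17.8%). At 1 h, 0 of the 34 rose and 0 fell by limma (0.291% and 0.304% of all), with 1 and 5 at an unadjusted p under 0.05. At 10 h, 1 rose and 0 fell against 0 h (0.615% and 0.0231% of all), and 2 rose and 0 fell against 1 h (1.92% and 1.13%). At an unadjusted p under 0.05, 1 and 3 fell.

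The H3K4me1 rise lay at *RRM2B*. The region across its promoter (chr8:103247917-103253859) lay at 84.1% and 77.0% at 0 h, 83.6% and 74.5% at 1 h and 97.5% and 95.0% at 10 h. The earlier times overlapped and the 10 h lists stood above both. The peak over the canonical promoter itself lay at 51.3% and 77.0% at 0 h, 83.6% and 74.5% at 1 h and 85.5% and 95.0% at 10 h. In replicate 1 at 0 h and at 10 h the value of the region thus came from another of its peaks. The score of the merged region rose by 1.02 ± 0.19 against 0 h (adjusted p = 0.0162 by limma) and by 1.11 ± 0.19 against 1 h (adjusted p = 0.00555). The former was lost without any one of the 4 lists compared (0.84 to 1.20, adjusted p = 0.072 to 0.28) and the latter without WT 1 h replicate 2 or WT 10 h replicate 1 (0.96 and 0.93, adjusted p = 0.067 and 0.094). A region over exons of *RSPH9* in the *POLH* window (chr6:43630995-43638604) rose by 0.86 ± 0.19 from 1 h to 10 h (adjusted p = 0.0244), a call lost without any one of those 4 lists (0.77 to 0.94, adjusted p = 0.085 to 0.17).

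The shape of the broad H3K4me1 peaks changed at *DDB2* and *PCNA*. At *DDB2* a single peak of 8284 to 8462 bp spanned the start in the 4 lists at 0 h and 1 h. At 10 h the peak over the promoter was 2332 and 2337 bp long and ended upstream of the start, at 47236414 and 47236461. The length covered in the region as a whole was 7474 and 7425 bp at 10 h, so the long peak was broken and not lost. At *PCNA* a peak of 8401 and 7925 bp at 0 h gave way to peaks of 973 to 1950 bp over the promoter at 1 h and 10 h, while the covered length stayed between 7690 and 9177 bp. These lengths were noted after the values were seen and were not tested. The canonical *POLH* promoter had an H3K4me1 peak in only 2 of the 6 lists, WT 1 h replicate 2 and WT 10 h replicate 2.

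Few H3K4me1 regions came or went. At 1 h, 1 of the 46 was gained (2.17%, against 3.30% of all regions), in the *DDB2* window (chr11:47217872-47218553). At 10 h, 3 were gained and 1 lost against 0 h (2.63% and 2.29% of all), and 2 were gained against 1 h (2.91% of all). Those 2, chr3:14198768-14199357 in the *XPC* intron and chr3:14240914-14241472 at the 3′ end of *LSM3*, overlap H3K27ac regions that were likewise present only in the 10 h lists. The H3K4me1 percentiles there were low, 37.3% and 3.39% in the *XPC* intron and 18.4% and 13.6% at *LSM3*. The region lost lay in an intron of *CDS2* (chr20:5111168-5112832).

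The members were then set beside 94 other genes of their pathways, in 4 lists covering excision repair (31 genes), translesion synthesis (15), nucleotide supply (26) and the sliding clamp with its partners (22). Of the 94 genes, 2 share a promoter region. At 1 h in WT, the regions of 28 genes rose (27 distinct regions) and those of 8 fell, where 16.4% and 17.1% of 10179 promoter regions did so. At 10 h, 4 rose and 22 fell (5.14% and 10.6% of all promoter regions), and from 1 h to 10 h, 10 rose and 41 fell (15.0% and 22.8%). In the RAD21 line at 1 h, 30 rose and 10 fell (17.1% and 13.1%). Ranked by fold, 5 rose and 10 fell at 10 h (9.42% and 9.90% of all), which kept the direction with fewer falls. By covered length 12 rose and 8 fell (8.54% and 10.0%), so the direction of the pathway genes at 10 h turned under that ranking.

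The clamp partners include replication polymerase subunits and clamp loaders. Of 22, 11 rose and 1 fell at 1 h in WT (median 0.47), and 2 rose and 11 fell at 10 h (median −0.42, but −0.15 when ranked by fold and 0.02 by covered length). From 1 h to 10 h, 2 rose and 17 fell (median −0.97). *DNMT1*, the maintenance methyltransferase that PCNA brings to new DNA, lay at 82.9% and 84.3% at 0 h, 97.0% and 96.7% at 1 h and 71.4% and 67.5% at 10 h, below both earlier times. It fell by 1.20 against 0 h (SE 0.11, adjusted p = 8.57e-05 by limma). *POLE2*, a subunit of polymerase epsilon, fell by 1.18 (SE 0.13, adjusted p = 0.000239). *MSH6*, which recognises mismatches, rose by 1.02 ± 0.11 at 1 h (adjusted p = 0.000120). *POLD4*, the small subunit of polymerase delta, rose by 0.85 ± 0.19 at 10 h (adjusted p = 0.0101), and *CHTF18*, of an alternative clamp loader, by 0.47 ± 0.12 (adjusted p = 0.0167).

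Nucleotide supply genes make and salvage the building blocks of DNA. Of 26, 11 genes (10 distinct regions) rose and 0 fell at 1 h in WT (median 0.32, and 0.00 by covered length), and 0 rose and 7 fell at 10 h (median −0.25). Ranked by fold, 0 genes of either this list or the clamp list rose or fell at 1 h, as did 0 of all 10179 promoter regions. That ranking therefore could not set these lists apart. Their medians by fold were 0.48 (nucleotide supply) and 0.43 (clamp). *TYMS*, which makes thymidylate, rose from 73.3% and 67.9% to 94.2% and 96.8% at 1 h, by 1.39 ± 0.12 (adjusted p = 4.29e-05 by limma). *NME1*, a nucleoside diphosphate kinase, rose by 1.25 ± 0.14 (adjusted p = 0.000156). *TK1*, which salvages thymidine, fell by 0.84 at 10 h (SE 0.11, adjusted p = 0.000665). *RRM2B*, the member of this pathway, did not pass at either time against 0 h in WT. Its changes were opposite in sign to the list medians ranked by p-value.

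Excision repair and translesion genes went both ways, as promoter regions did over all. Of 31 excision repair genes, 5 rose and 4 fell at 1 h in WT, where 16.4% and 17.1% of all promoter regions did so. At 10 h, 1 rose and 2 fell (5.14% and 10.6% of all), and in the RAD21 line 10 rose and 5 fell (17.1% and 13.1%). Among those that fell at 1 h in WT were *RBX1*, of the ubiquitin ligase that holds DDB2 (by 0.76, SE 0.13, adjusted p = 0.00107 by limma), and *ERCC1*, of the 5′ nuclease (by 0.91, SE 0.18, adjusted p = 0.00315). Of 15 translesion genes, beside the same WT shares, 1 rose and 3 fell at 1 h and 1 rose and 2 fell at 10 h. *WDR48*, a partner of the PCNA deubiquitinase, fell by 0.84 at 1 h (SE 0.14, adjusted p = 0.00135), and *REV3L*, the catalytic part of polymerase zeta, rose by 0.79 ± 0.21 at 10 h (adjusted p = 0.0207). *POLI*, another bypass polymerase, lay at 99.5% and 99.2% in the untreated RAD21 line against 82.9% and 84.0% in WT (1.63 ± 0.12, adjusted p = 9.68e-07) and fell by 1.51 there at 1 h (SE 0.12, adjusted p = 1.02e-05). *CETN2*, which binds XPC, had the same course, 0.96 ± 0.11 above WT untreated (adjusted p = 2.88e-05) and falling by 1.22 at 1 h (SE 0.11, adjusted p = 1.83e-05).

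**Figure D5:**
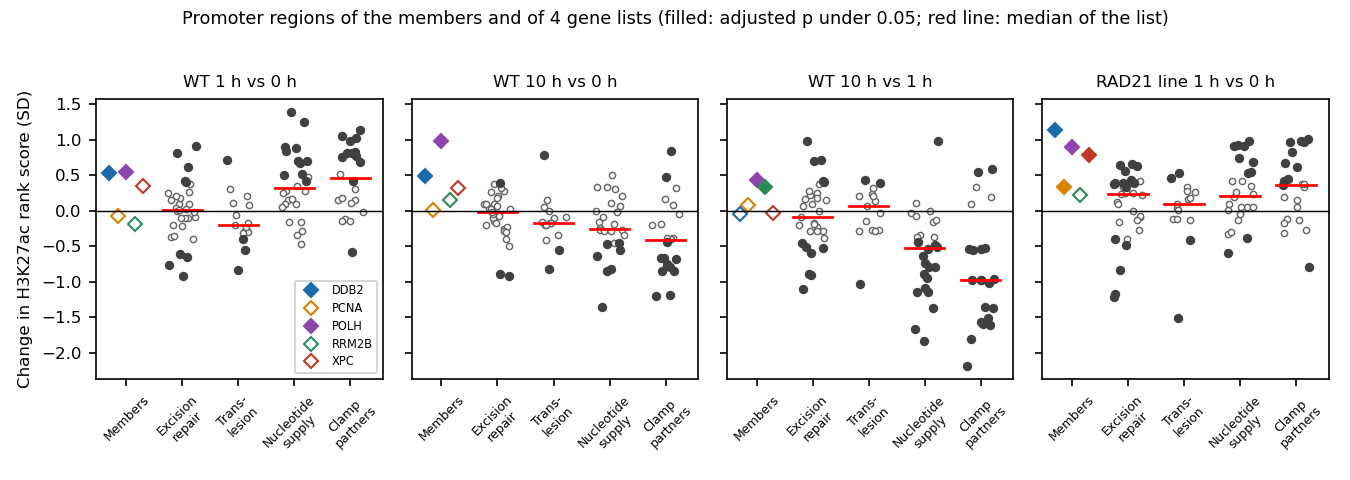
Change in H3K27ac rank score (y axis, SD units) of the promoter regions of the members (coloured diamonds) and of the 4 gene lists (grey circles) in 4 comparisons; filled symbols have an adjusted p under 0.05 and red lines are list medians. The clamp partners have medians of 0.47 at 1 h and −0.42 at 10 h in WT, while *POLH* stands at 0.98 at 10 h.

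Few H3K4me1 changes at these promoters passed. Of 93 with a region in all 6 lists, 1 rose at 1 h, 0 rose or fell at 10 h against 0 h, and 2 rose and 1 fell from 1 h to 10 h, all by limma. At an unadjusted p under 0.05 by limma, 3 rose and 11 fell at 1 h, and 1 rose and 1 fell at 10 h against 0 h. From 1 h to 10 h, 10 rose and 3 fell at that level. The share of all promoter regions at that level was not counted. The rise at 1 h was that of *POLE*, the catalytic subunit of polymerase epsilon (1.10 ± 0.22, adjusted p = 0.0362 by limma), which fell again by 1.39 to 10 h (SE 0.22, adjusted p = 0.00361). Over all 12326 promoter regions, 0.300% rose and 0.406% fell at 1 h, 0.243% and 0.0325% at 10 h against 0 h, and 1.65% and 0.771% from 1 h to 10 h.

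Finally, the promoters most like each member across the 10 lists were found among the 10179 promoter regions, by Pearson's correlation of rank scores. The lists share groups and lengths, so these are descriptions. *DDB2* was closest to *SEMA3A* (r = 0.97), the *MRPL36* and *NDUFS6* promoter (0.97) and *SPG7* (0.97). *XPC* was closest to *PPP1CB* (0.96), *RHOT1* (0.96) and, next among all promoters, *DDB2* itself (0.96). *POLH* was closest to *RCOR1* (0.97), *AEN*, a p53-inducible nuclease (0.96), and *UTRN* (0.95). *RRM2B* was closest to *BCDIN3D* (0.95), the *DMGDH* and *JMY* promoter (0.94) and *TMUB2* (0.94), and the merged *PCNA* region to *DHX37* (0.99), *NOMO1* (0.98) and *CANX* (0.97). Between members, *DDB2*, *XPC* and *POLH* formed the closest group (0.79 to 0.96), and the merged *PCNA* region and *RRM2B* were less alike (0.37) and less like the others (0.22 to 0.57). By the strongest peak over each canonical promoter, *PCNA* stood nearer to *DDB2*, *XPC* and *POLH* (0.71, 0.67 and 0.77) and had an r of 0.016 with *RRM2B*.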

How the data were processed

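ChIP-seq peak lists of H3K27ac (10 lists) and H3K4me1 (6 lists) were analysed, 1 list per sample and 2 per group in 8 groups. The 10 input libraries had no peak list here. According to the study's methods, the authors trimmed reads with Trim Galore 0.6.6, aligned them to GRCh37 with Bowtie2 2.3.2 and called narrow (H3K27ac) or broad (H3K4me1) peaks with MACS2 2.2.7.1 against input, per sample. The deposited values are fold enrichment over local background, −log10 p-value and −log10 q-value, each within 1 library, so levels cannot be compared between lists without ranking. No counts were used, and depth is unknown.

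Peaks of a mark overlapping by at least 1 bp were merged into regions. Each region took its strongest peak in a list. Regions in every list were ranked by −log10 p-value, turned into normal scores and fitted with limma 3.58.1 (R 4.3.3), 1 fit per mark over all groups, with trend and Benjamini-Hochberg adjustment at 0.05. With 2 lists against 2, an exact permutation test cannot pass 0.05. A promoter was 1000 bp before to 200 bp after a start. The alternatives were ranking by fold or covered length, a −log10 q-value of at least 5, presence by covering 50% of a region, flanks of 10 or 100 kb, a replicate block, the form of peak names as a term, and leaving out each list. The promoter fit, the spacer search, and summit and length readouts were added after the data were seen. Every window region that passed is named or counted, gained or lost regions are named by the 5 highest mean percentiles, and pathway genes by the 3 smallest p-values in each direction of a comparison. One such region and 1 such gene are not reported here. The members and lists were chosen with earlier results of these data known.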

Additional observations from a re-analysis of the deposited data

Results flagged for a closer look

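At 6 window regions the change at 1 h of Nutlin-3a differed between the RAD21 line and WT by an interaction term in the limma fit. Positive values mean a more positive change in the RAD21 line. They were the *ARFGAP2* promoter at 1.40 ± 0.19 (adjusted p = 0.000306), the *PACSIN3* promoter at 0.79 ± 0.17 (adjusted p = 0.00542) and the *DDB2* promoter at 0.60 ± 0.19 (adjusted p = 0.0336). Further ones were the 3′ end of *XPC* at −1.70 ± 0.23 (adjusted p = 0.000297), the *GTPBP2* and *MAD2L1BP* promoter at 0.58 ± 0.19 (adjusted p = 0.0433) and the intergenic region of the *PCNA* window at 1.21 ± 0.16 (adjusted p = 0.000254). None of the 6 passed when regions were ranked by fold or by covered length. Few of all promoter regions did so for this interaction, 0% by fold and 0.108% (higher) and 0.442% (lower) by covered length. The *DDB2* value was lost without any one of 6 lists (adjusted p = 0.063 to 0.14) and the *GTPBP2* value without any one of 8 (0.50 to 0.66, adjusted p = 0.051 to 0.16), while the other 4 passed without each single list. The WT 0 h lists and the RAD21 lists also differ in the form of their peak names.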

How the results depend on the processing

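Counts of H3K27ac changes in the windows were 6, 4 and 5 for WT at 1 h, at 10 h and from 1 h to 10 h, 10 for Nutlin-3a in the RAD21 line, 7 and 5 for RAD21 against WT (0 h, then 1 h), and 6 for the interaction. In that order they became 0, 2, 1, 0, 3, 0 and 0 when ranked by fold, and 0, 0, 0, 0, 1, 0 and 0 by covered length. Wherever the count by fold was 0, 0% of all promoter regions passed by fold as well. By covered length few promoter regions passed, except in WT at 10 h (8.54% higher, 10.0% lower) and between untreated lines (9.28% and 5.09%). With the form of names as a term, which cannot alter the size of a change within the RAD21 line, 37 of 43 called values still passed. The window counts were then 2 for WT at 10 h and 4 and 8 between the lines. Without 1 list they ranged over 4 to 7, 1 to 5, 3 to 6, 6 to 11, 4 to 9, 1 to 8 and 4 to 8. The 43 values all passed when peaks under a −log10 q-value of 5 were dropped. For H3K4me1 the counts at 10 h fell to 0 by fold and by covered length, and to 0 against 0 h at a −log10 q-value of 5, and without 1 list ranged over 0 to 0, 0 to 1 and 0 to 2. The causes were not tested.

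Deviations of rank scores from their group means were barely correlated between same-numbered replicates (r from −0.050 to 0.045 over 10 H3K27ac pairs). Ranking removes shifts of a whole list, so these values cannot tell whether such replicates shared a culture or a day. With the replicate block the H3K27ac counts were 6, 4, 5, 10, 6, 5 and 5, and the H3K4me1 counts 0, 1 and 2.

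Direction turned by covered length for the *POLH* promoter (−0.41 for WT at 1 h, −0.61 at 10 h, −0.20 between them), the *DDB2* promoter (−0.040 for WT at 10 h, −0.34 between lines at 1 h, −0.36 for the interaction) and the intergenic *PCNA* window region (0.49 for WT at 1 h, 0.60 between lines at 0 h, −0.50 for the interaction). It also turned for the *CDS2* and *PCNA* start (−0.26 from 1 h to 10 h, −0.27 between lines at 0 h), *MADD* (−0.089) and *GTPBP2* (−0.20) in the RAD21 line, and *CHCHD4* (−0.24) and the *CDS2* intron (−0.42) between lines at 0 h. By fold it turned for the merged *PCNA* region between lines at 0 h (0.22) and the *GTPBP2* interaction (−0.0071). For *PCNA*, the strongest peak over the promoter gave 1.03 for WT at 1 h and 0.30 between lines at 0 h.

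Window peaks numbered 248 (H3K27ac) at a −log10 q-value of 5, and 186 and 145 (H3K4me1) with flanks of 10 kb, and 455 H3K4me1 with 100 kb. Gained H3K27ac regions at that q-value were 5 and 3 for WT at 10 h against 0 h and 1 h, 1 for the RAD21 line (lost 0), and 3 and 0 between lines. With 50% of the region covered they were 1 for WT at 1 h and 13 and 4 between lines. For H3K4me1 that q-value left 0 gained in each comparison and 0 lost at 10 h, and 50% cover gave 2 gained at 1 h and 2 lost from 1 h to 10 h. Without 1 list, gained H3K27ac regions ranged over 1 to 14, 21 to 34 and 15 to 29 in WT, 3 to 11 in the RAD21 line, and 7 to 20 and 3 to 11 between lines, and lost ones over 0 to 2, 0 to 2, 0 to 5, 4 to 15, 0 to 2 and 0 to 9. For H3K4me1 gained ones ranged over 1 to 4, 3 to 6 and 2 to 3, and lost ones over 0 to 1, 1 to 2 and 0 to 2.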
